A study of Mus musculus with 6 samples.

Results

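The genes of glycolysis and of the response to low oxygen were followed here as a group of 36, made up of 15 glycolytic enzymes and 21 other genes known to be induced by hypoxia or to sense oxygen. Members were taken by gene symbol from the deposited count table, which holds 23358 entries, and all 36 were present and passed the filter on low counts that left 16280 genes for testing. Ezh2-deficient immature chondrocytes, cultured for 3, 7 or 14 days, were set against wildtype immature chondrocytes at the same days, with 1 library for each genotype and day, 6 in all. Cells of both genotypes came from joints of post-natal day 5 mice on a strain described as a C57BL/6 mix and were grown as micromasses with insulin, transferrin, selenium, ascorbic acid and β-glycerol phosphate. The library titles call the Ezh2-deficient cells a conditional knockout. The sources used here do not give the Cre driver, the number of animals pooled into a library or the oxygen tension of the cultures. Ezh2 encodes the histone H3 lysine 27 methyltransferase of Polycomb repressive complex 2.

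Cartilage has no blood vessels, and its cells live at low oxygen and make much of their ATP by glycolysis. When oxygen is present, prolyl hydroxylases (the Egln genes) mark the alpha subunit of hypoxia-inducible factor (HIF) for destruction through the Vhl protein. When oxygen is scarce the alpha subunit persists, pairs with Arnt and binds a short sequence, the hypoxia response element, near genes for glucose uptake, glycolysis, lactate export, pH control, blood vessel growth and collagen hydroxylation. Hif1a is needed for chondrocytes of the growth plate to survive. Because HIF alpha is controlled mainly through the stability of its protein, the RNA level of Hif1a is not a measure of HIF activity.

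Libraries held between 51985214 and 79323302 counts, and a fragment was taken as 2 counts for the intervals, because every count in the table was even. Levels are given as counts per 1000000 counts (CPM) computed from the deposited counts after scaling by trimmed mean of M values (TMM). Ezh2 itself had 14.7, 23.0 and 17.6 CPM in Ezh2-deficient libraries at days 3, 7 and 14, against 24.7, 40.2 and 27.9 CPM in wildtype libraries. Since the deleted exons are not named, these reads do not test the genotype labels. All 12 chondrocyte markers were detected, and their sum was 132838, 55468 and 23642 CPM in Ezh2-deficient libraries, against 138081, 79375 and 38640 CPM in wildtype libraries. The sum of 8 osteoblast markers was 1326, 8249 and 95691 CPM in Ezh2-deficient libraries, against 802, 6758 and 44324 CPM in wildtype libraries. Col1a1 was the largest part of the osteoblast sum in each library. It had 1133, 7677 and 62979 CPM in Ezh2-deficient libraries, against 703, 6596 and 34581 CPM in wildtype libraries. Col2a1 was the largest part of the chondrocyte sum in each library. Rn45s, the ribosomal RNA precursor, took between 2.28% and 2.98% of counts in Ezh2-deficient libraries and between 1.66% and 2.06% in wildtype libraries.

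The glycolytic enzymes were lower as a group in Ezh2-deficient than in wildtype cultures on every day. Their summed level was 5863, 5022 and 6110 CPM in Ezh2-deficient libraries at days 3, 7 and 14, against 7533, 6904 and 8059 CPM in wildtype libraries, a difference of -22.2%, -27.3% and -24.2%. The 21 other members summed to 3216, 2482 and 4376 CPM in Ezh2-deficient libraries, against 4418, 3308 and 4720 CPM in wildtype libraries, a difference of -27.2%, -25.0% and -7.30%. Without P4ha1 and P4ha2, which were left out after their values were seen, the differences of the others were -28.4%, -31.7% and -16.5%. The median log2 ratio of the 21 other members was -0.50, -0.37 and -0.25 on the 3 days, and 18, 20 and 14 of them were below wildtype. Of all 16280 genes tested, 8086, 8244 and 8121 were below wildtype on those days. In bulk RNA, fewer cells of a type and less RNA per cell cannot be told apart, and the part of the marker and Rn45s differences given above in these results was not tested.

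The genotype difference shared by the 3 days was tested with edgeR's quasi-likelihood F test with day as a factor, so that days stand in for replicates and 2 residual degrees of freedom remain. No member of 36 passed an adjusted p of 0.05 (Benjamini-Hochberg over 16280 genes), beside 0.0123% of all genes. At an unadjusted p under 0.05, 23 members were lower, 13 of 15 enzymes and 10 of 21 others, where 6.33% of all genes were lower at that level. At the same level 0 members were higher, against 6.82% of all genes. DESeq2 called 18 members lower at an adjusted p under 0.05, 10 of them enzymes, where it called 1.44% of all genes lower. limma-voom called 2, Aldoc and Car9, beside 0.0553% of all genes. No tool called a member higher. Without the day 3 pair of libraries edgeR called 10 members lower, where it called 3.04% of all genes lower and 5.46% in either direction. Without the day 7 or the day 14 pair it called 0 members and 0 of all genes. At an unadjusted p under 0.05, 15 members were lower when the day 7 libraries were left out (1.96% of all genes). The count was 23 when those of day 3 (10.8% of all genes) or of day 14 (3.97%) were left out.

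The level in the Ezh2-deficient library was below that in the wildtype library on all 3 days for 27 of 36 members, where 18.3% of all genes were. These were 14 enzymes, all but Eno2, and 13 other members. Pfkfb4 alone was above wildtype on all 3 days, where 18% of all genes were. The median log2 difference was -0.40 for the enzymes (range -0.74 to -0.16), -0.32 for the other members (range -0.99 to 0.23) and -0.0018 for all genes tested. The single-day rule asked for at least 1 CPM, at least 2-fold apart and a 95% counting interval that excludes 1. By this rule Car12 and Ankrd37 were 2-fold lower at day 3, Egln3 and Ankrd37 at day 7 and Car9 at day 14. The Car9 ratio at day 14, 0.499 (interval 0.482 to 0.518), lay at the edge of the 2-fold limit. In either direction the rule called 5.56%, 5.56% and 2.78% of members on the 3 days, beside 1.9%, 3.47% and 4.89% of all genes. With 1 library per genotype a single day has no test. The intervals cover counting error alone, and reads counted without molecular identifiers can be copies of the same molecule.

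**Figure D1:**
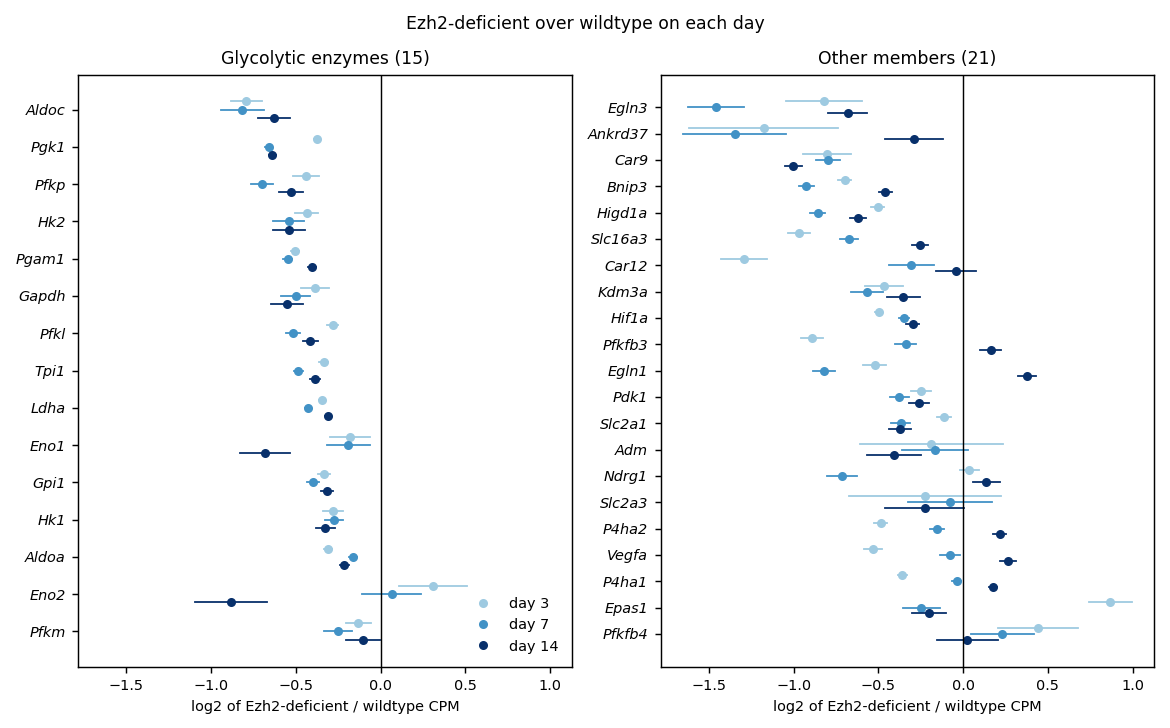
Log2 ratio of the Ezh2-deficient over the wildtype CPM for each member at days 3, 7 and 14 (light to dark), with exact 95% counting intervals; genes are ordered by the log2 difference shared by the 3 days. The enzymes other than Eno2 lie left of 0 on every day, while 7 of the other members (Pfkfb3, Pfkfb4, Egln1, P4ha1, P4ha2, Vegfa and Ndrg1) lie to the right of 0 at day 14.

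Promoter sequences are shown for 5 members that were lower on every day and for P4ha1, which was not, so that the HIF core motif can be seen beside the response; the 6 were chosen after their values were seen. Each is the 250 bases before the transcription start from RefSeq (GRCm38.p6, the mm10 build), written 5′ to 3′ along the gene, with capitals marking ACGTG or GCGTG or their reverse complements CACGT and CACGC. Where a match overlaps its own reverse complement, as in CACGTG, it was counted once.
Car9 (chr4:43506776-43507025, plus strand): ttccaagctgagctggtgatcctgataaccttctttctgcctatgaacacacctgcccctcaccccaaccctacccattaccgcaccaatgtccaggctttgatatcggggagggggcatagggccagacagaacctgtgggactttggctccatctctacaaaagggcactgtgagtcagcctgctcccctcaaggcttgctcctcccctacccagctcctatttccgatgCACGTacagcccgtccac
Egln3 (chr12:54203875-54204124, minus strand): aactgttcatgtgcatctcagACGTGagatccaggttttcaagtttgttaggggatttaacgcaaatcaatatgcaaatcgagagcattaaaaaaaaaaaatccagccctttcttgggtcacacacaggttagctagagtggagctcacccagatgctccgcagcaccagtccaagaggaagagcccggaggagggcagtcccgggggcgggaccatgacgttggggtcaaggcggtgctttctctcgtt
Bnip3 (chr7:138909507-138909756, minus strand): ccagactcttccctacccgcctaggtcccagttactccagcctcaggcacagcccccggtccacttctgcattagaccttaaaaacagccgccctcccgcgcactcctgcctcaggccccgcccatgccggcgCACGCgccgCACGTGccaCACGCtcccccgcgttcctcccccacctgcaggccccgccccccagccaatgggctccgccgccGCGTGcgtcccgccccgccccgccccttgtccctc
Hk2 (chr6:82774455-82774704, minus strand): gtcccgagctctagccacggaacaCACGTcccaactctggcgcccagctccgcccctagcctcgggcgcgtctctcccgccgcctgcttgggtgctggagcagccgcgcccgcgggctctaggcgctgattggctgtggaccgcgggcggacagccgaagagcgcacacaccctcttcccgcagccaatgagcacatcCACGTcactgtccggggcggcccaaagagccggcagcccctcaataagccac
Pgk1 (chrX:106186850-106187099, plus strand): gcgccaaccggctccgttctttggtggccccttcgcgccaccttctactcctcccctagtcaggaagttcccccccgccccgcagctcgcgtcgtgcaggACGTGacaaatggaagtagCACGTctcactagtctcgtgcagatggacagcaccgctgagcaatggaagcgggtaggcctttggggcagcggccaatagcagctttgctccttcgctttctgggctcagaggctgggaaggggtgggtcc
P4ha1 (chr10:59323046-59323295, plus strand): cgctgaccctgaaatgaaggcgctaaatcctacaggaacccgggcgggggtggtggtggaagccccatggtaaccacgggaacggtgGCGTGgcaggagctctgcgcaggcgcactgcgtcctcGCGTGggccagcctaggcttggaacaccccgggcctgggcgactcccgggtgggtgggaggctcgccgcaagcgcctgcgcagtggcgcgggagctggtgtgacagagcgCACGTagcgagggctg
The Car9 window holds 1 match, starting 18 bases before the transcription start, and the Egln3 window holds 1, starting 229 bases before it. Bnip3 has 4 matches, of which 3 start between 117 and 99 bases before the start. Hk2 and Pgk1 have 2 each, and P4ha1 has 3. Windows of 300 bases (250 before to 50 after the start) were found for 33 of 36 members, and 29 of the 33 genes (87.9%) had at least 1 match in some window, against 46.7% of 27025 genes with a window. By window the shares were 77.1% of 48 and 43.8% of 32851. Member windows were richer in G and C, with a median of 61.5% against 52.7% for all windows, and the part of base composition in the motif share was not tested. Matches occurred in 12 of 15 enzymes and in 17 of 18 other members with a window.

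Glucose enters glycolysis through hexokinase. Hk2 (chromosome 6, 82725027 to 82774454, mm10), the HIF-inducible hexokinase, had 87.5, 44.6 and 56.4 CPM in Ezh2-deficient libraries at days 3, 7 and 14, against 118, 64.9 and 82.1 CPM in wildtype libraries. It was lower on each day by a similar ratio, with a shared log2 difference of -0.51 ± 0.07 (SE; edgeR adjusted p = 0.0955). Hk1, the hexokinase most tissues use, had between 119 and 164 CPM in Ezh2-deficient libraries and between 144 and 205 CPM in wildtype libraries, a difference of -0.29 (edgeR adjusted p = 0.198). Per coding length, from the authors' RPKM values, Hk2 made up 37.6%, 21.1% and 21.99% of the hexokinase pair in Ezh2-deficient libraries at days 3, 7 and 14, against 40.1%, 24.4% and 24.7% in wildtype libraries. Both genotypes thus moved toward Hk1 between days 3 and 7, with the Hk2 share slightly smaller in Ezh2-deficient libraries each day.

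The 3 phosphofructokinases make the committed step. Pfkp (chromosome 13, 6579874 to 6648724), the platelet-type subunit, had 70.4, 85.7 and 102 CPM in Ezh2-deficient libraries, against 95.5, 139 and 147 CPM in wildtype libraries. Its difference was -0.56 ± 0.08 (edgeR adjusted p = 0.110). Pfkl, the liver-type subunit, differed by -0.40 and Pfkm, the muscle-type subunit, by -0.16, and neither passed (edgeR adjusted p = 0.179 and 0.392). By RPKM, Pfkl was the main subunit, and the share of Pfkp was 12.7%, 20.4% and 22.7% in Ezh2-deficient libraries at days 3, 7 and 14, against 14.2%, 23.3% and 24.9% in wildtype libraries.

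Aldolase splits the 6-carbon sugar. Aldoc (chromosome 11, 78324198 to 78326760), the brain-type aldolase, had 42.5, 20.8 and 56.2 CPM in Ezh2-deficient libraries at days 3, 7 and 14, against 73.6, 36.6 and 86.7 CPM in wildtype libraries. Both genotypes were lowest at day 7, and wildtype was the higher of the pair on each day. The log2 difference of -0.74 ± 0.07 was the largest among the enzymes, with an edgeR adjusted p = 0.0674 and a limma-voom adjusted p = 0.0466, and over 9 alternatives the adjusted p lay between 7.51e-08 and 0.602. Aldoa, the main aldolase by RPKM, differed by -0.23 (edgeR adjusted p = 0.372). Aldoc made up 6.13%, 2.86% and 7.03% of aldolase RPKM in Ezh2-deficient libraries, against 8.36%, 4.43% and 9.14% in wildtype libraries.

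In the later steps of the pathway, Gapdh (chromosome 6, 125161852 to 125165583), glyceraldehyde-3-phosphate dehydrogenase, had 61.6, 49.5 and 60.0 CPM in Ezh2-deficient libraries, against 80.6, 70.1 and 88.0 CPM in wildtype libraries. The difference was -0.48 ± 0.07 (edgeR adjusted p = 0.110). By RPKM, Gapdh lay between 35.4 and 58.3, far below Tpi1 and Pgk1, the enzymes on either side of it, at 280 to 434 and 423 to 752. The GENCODE annotation of the mm10 build holds 77 near-identical copies of Gapdh (at least 95% identity over at least 300 bases), 74 of them pseudogenes, so its level is uncertain. The same holds for Eno1, an enolase with 3 such copies and 9.85 to 16.8 RPKM, and for Ldha, Pgk1 and Bnip3, with 3, 4 and 4 copies. The sources used here do not give the strandedness. Exons of 14 members overlap a gene on the opposite strand, whose reads cannot be told apart from theirs. The 14 were Hk1, Gpi1, Pfkm, Pfkp, Aldoa, Tpi1, Gapdh, Slc2a1, Car9, Hif1a, Bnip3, Higd1a, Ankrd37 and Ndrg1. Ankrd37 and Ndrg1 overlap 2 such genes each.

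Pgk1 (chromosome X, 106187124 to 106203699), phosphoglycerate kinase, which makes the first ATP of the pathway, had 1261, 866 and 1064 CPM in Ezh2-deficient libraries at days 3, 7 and 14, against 1634, 1369 and 1658 CPM in wildtype libraries. It differed by -0.56 ± 0.11 (edgeR adjusted p = 0.160). Pgk1 is X-linked, and Xist, the RNA of the inactive X, had 842, 677 and 513 CPM in Ezh2-deficient libraries, against 1065, 1130 and 1223 CPM in wildtype libraries. The sum of 4 Y-linked genes was 122, 131 and 171 CPM in Ezh2-deficient libraries, against 90.8, 62.5 and 60.6 CPM in wildtype libraries. Xist and Y-linked RNA were thus both present in every library, in unequal parts by genotype, and more unequal at day 14 than at day 3. An unequal mix of sexes cannot be told apart from genotype in these libraries. Its part in the Pgk1 result, in the other genotype differences and in their change with day was not tested. Pgam1 (chromosome 19, 41911871 to 41918665), phosphoglycerate mutase, had 634, 611 and 782 CPM in Ezh2-deficient libraries, against 901, 894 and 1036 CPM in wildtype libraries. It differed by -0.49 ± 0.09 (edgeR adjusted p = 0.145) and was lower on each day.

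Ldha (chromosome 7, 46845804 to 46855627) encodes a subunit of lactate dehydrogenase, which regenerates NAD by reducing pyruvate to lactate. Ldha was the most abundant member by RPKM. It had 1500, 1246 and 1627 CPM in Ezh2-deficient libraries, against 1906, 1675 and 2020 CPM in wildtype libraries. The difference was -0.36 ± 0.10 (edgeR adjusted p = 0.260), at a near-constant ratio of 0.787, 0.744 and 0.805 on the 3 days. Gpi1, Tpi1 and Eno1 differed by -0.35, -0.40 and -0.35 without passing (edgeR adjusted p = 0.196, 0.189 and 0.335). The Eno1 value was -0.18 without the day 14 pair. Eno1 itself had 31.4, 25.9 and 22.8 CPM in Ezh2-deficient libraries, against 35.6, 29.5 and 36.6 CPM in wildtype libraries. Eno2, the neuronal enolase, did not follow the other enzymes. It had 13.1, 15.1 and 10.5 CPM in Ezh2-deficient libraries, against 10.6, 14.4 and 19.5 CPM in wildtype libraries, above wildtype at day 3 and below it at day 14.

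**Figure D2:**
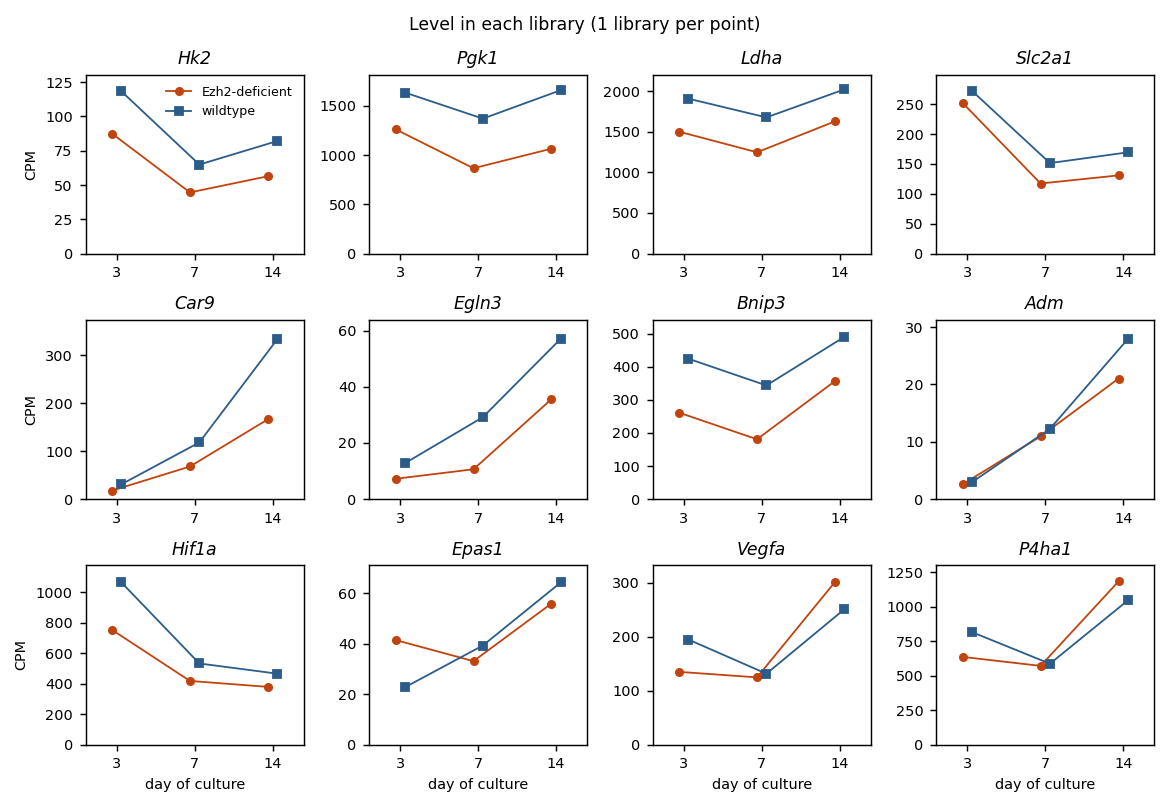
CPM of 12 members in each library against day of culture, 1 library per point, with Ezh2-deficient in orange and wildtype in blue; axes start at 0. Hk2, Pgk1, Ldha, Car9, Egln3 and Bnip3 are lower in the Ezh2-deficient library at each day, and the lines of Epas1, Vegfa and P4ha1 cross.

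Glucose uptake and lactate export were described by 3 transporters. Slc2a1 (chromosome 4, 119108745 to 119137329), the GLUT1 glucose transporter, had 252, 117 and 131 CPM in Ezh2-deficient libraries, against 272, 151 and 169 CPM in wildtype libraries, a difference of -0.28 ± 0.09 (edgeR adjusted p = 0.283). Slc2a3 (chromosome 6, 122727809 to 122742745), the high-affinity transporter GLUT3, had 2.26, 7.14 and 10.8 CPM in Ezh2-deficient libraries, against 2.64, 7.55 and 12.7 CPM in wildtype libraries. Its ratio was 0.856, 0.947 and 0.854 on the 3 days, and the counting interval included 1 on each day. Slc16a3, the lactate exporter MCT4, had 87.2, 127 and 257 CPM in Ezh2-deficient libraries, against 171, 202 and 307 CPM in wildtype libraries. Its ratio was 0.511, 0.627 and 0.839 on the 3 days, and the shared difference was -0.63 (edgeR adjusted p = 0.198).

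The bifunctional enzymes Pfkfb3 and Pfkfb4 set the level of fructose 2,6-bisphosphate, the activator of phosphofructokinase, and had shared differences of opposite sign. Pfkfb3 (chromosome 2, 11471431 to 11553929) had 88.0, 102 and 166 CPM in Ezh2-deficient libraries, against 163, 129 and 148 CPM in wildtype libraries, lower at day 3 and higher at day 14. Pfkfb4 (chromosome 9, 108991902 to 109032225) had 10.2, 13.9 and 19.6 CPM in Ezh2-deficient libraries, against 7.49, 11.8 and 19.2 CPM in wildtype libraries. The differences were -0.36 ± 0.20 for Pfkfb3 and 0.23 ± 0.12 for Pfkfb4, and neither passed (edgeR adjusted p = 0.493 and 0.471). Leaving out the day 3 libraries gave -0.088 for Pfkfb3 and 0.13 for Pfkfb4, and leaving out those of day 14 gave -0.61 for Pfkfb3. The share of Pfkfb4 in the pair by RPKM was 15.4% at day 3 in the Ezh2-deficient library, against 6.73% in the wildtype library, and at day 14 it was 15.7% in the Ezh2-deficient and 17.0% in the wildtype library. Pdk1, the kinase that inhibits pyruvate dehydrogenase and so limits the conversion of pyruvate to acetyl-CoA, was lower on each day at a difference of -0.30 (edgeR adjusted p = 0.215).

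**Figure D3:**
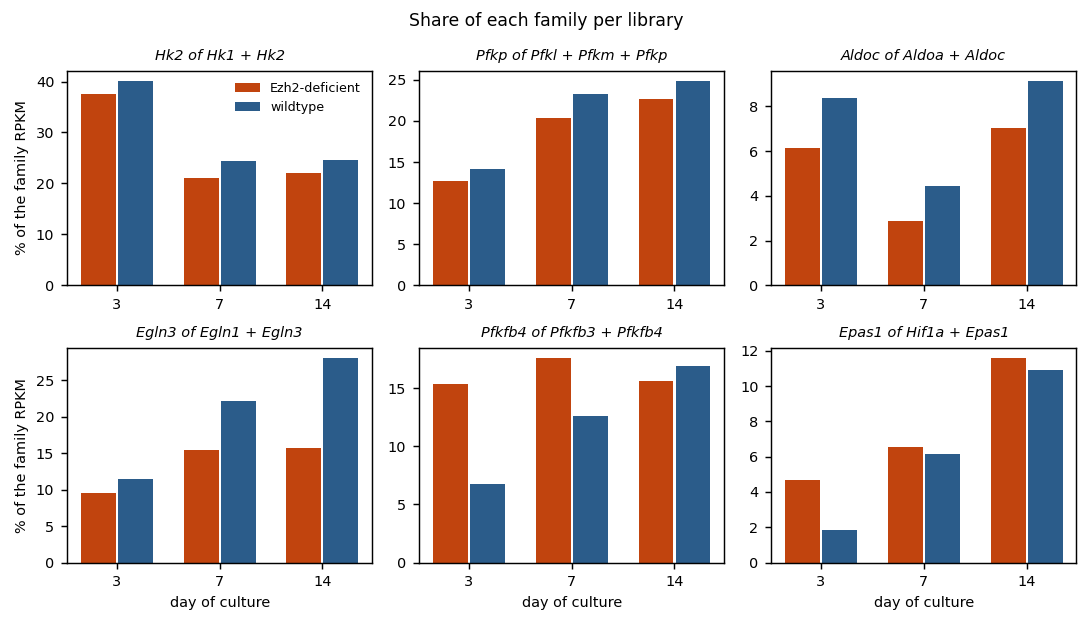
Share of 1 member in the RPKM of all members of its gene family, in percent, for each library at days 3, 7 and 14. Ezh2-deficient is left of wildtype in each pair of bars. The Hk2, Pfkp, Aldoc and Egln3 shares are smaller in Ezh2-deficient cultures at each time, whereas the Pfkfb4 share at day 3 is 15.4% in the Ezh2-deficient and 6.73% in the wildtype library.

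Car9 (chromosome 4, 43507026 to 43513725), the HIF-induced carbonic anhydrase on the cell surface, had the smallest p of all members. Its levels were 17.6, 67.9 and 166 CPM in Ezh2-deficient libraries at days 3, 7 and 14, against 30.8, 118 and 333 CPM in wildtype libraries. The Ezh2-deficient library had 57.3%, 57.5% and 49.9% of the wildtype level. The shared difference was -0.87 ± 0.08 (edgeR adjusted p = 0.0644; limma-voom adjusted p = 0.0397; range over 9 alternatives 3.36e-11 to 0.602). Car12 (chromosome 9, 66713686 to 66766845), a second membrane carbonic anhydrase, had 17.5, 22.1 and 42.4 CPM in Ezh2-deficient libraries, against 43.0, 27.3 and 43.7 CPM in wildtype libraries. Its ratio was 0.408, 0.809 and 0.971 on the 3 days, and the interval included 1 at day 14.

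Vegfa (chromosome 17, 46016993 to 46032377), the main growth factor for blood vessels, had 135, 124 and 301 CPM in Ezh2-deficient libraries, against 194, 131 and 251 CPM in wildtype libraries. Adm (chromosome 7, 110627669 to 110629819), which encodes the vasodilator peptide adrenomedullin, had 2.58, 10.9 and 21.02 CPM in Ezh2-deficient libraries, against 2.94, 12.3 and 27.9 CPM in wildtype libraries. Vegfa was below wildtype at day 3 and above it at day 14, and the Adm interval excluded a ratio of 1 at day 14 alone. Shared differences were -0.11 ± 0.16 and -0.26 ± 0.11, and neither passed (edgeR adjusted p = 0.796 and 0.402).

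Of the oxygen-sensing members, Hif1a (chromosome 12, 73907867 to 73947530) had 754, 418 and 379 CPM in Ezh2-deficient libraries at days 3, 7 and 14, against 1066, 533 and 466 CPM in wildtype libraries. It was lower on each day, at -0.38 ± 0.09 (edgeR adjusted p = 0.210). Epas1 (chromosome 17, 86753864 to 86833410), which encodes HIF-2 alpha, had 41.4, 33.1 and 55.9 CPM in Ezh2-deficient libraries, against 22.7, 39.3 and 64.3 CPM in wildtype libraries. Epas1 was higher at day 3 and lower at days 7 and 14, with a shared difference of 0.13 ± 0.23 (edgeR adjusted p = 0.841). By RPKM, Epas1 made up 4.66%, 6.57% and 11.6% of the 2 alpha subunits in Ezh2-deficient libraries, against 1.86%, 6.15% and 10.9% in wildtype libraries.

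Egln3 (chromosome 12, 54178981 to 54203874), a HIF prolyl hydroxylase that is itself a HIF target, had 7.24, 10.6 and 35.6 CPM in Ezh2-deficient libraries, against 12.8, 29.2 and 57.2 CPM in wildtype libraries. This was the largest shared difference among the members, at -0.99 ± 0.17 (edgeR adjusted p = 0.121). Egln1, the main prolyl hydroxylase in most cells, had 90.5, 76.5 and 251 CPM in Ezh2-deficient libraries, against 130.1, 135 and 193 CPM in wildtype libraries. It was below wildtype at days 3 and 7 (ratios 0.696 and 0.566) and above it at day 14 (ratio 1.30). The Egln3 share of the pair by RPKM was 9.52%, 15.5% and 15.8% in Ezh2-deficient libraries, against 11.4%, 22.1% and 28.1% in wildtype libraries. Kdm3a (chromosome 6, 71588972 to 71632905), a histone H3 lysine 9 demethylase induced by HIF, had 31.0, 40.4 and 58.4 CPM in Ezh2-deficient libraries, against 42.9, 59.9 and 74.5 CPM in wildtype libraries. It was lower on each day at -0.46 ± 0.07 (edgeR adjusted p = 0.114).

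Bnip3 and Higd1a, which encode proteins of mitochondrial membranes, were below wildtype on each day. Bnip3 (chromosome 7, 138890836 to 138909506), a receptor for the removal of mitochondria by autophagy, had 261, 181 and 357 CPM in Ezh2-deficient libraries, against 425, 344 and 491 CPM in wildtype libraries. Higd1a (chromosome 9, 121848560 to 121858000), a HIF-induced protein of the inner mitochondrial membrane, had 256, 167 and 206 CPM in Ezh2-deficient libraries, against 363, 303 and 316 CPM in wildtype libraries. Both were farthest from wildtype at day 7, with shared differences of -0.69 ± 0.11 and -0.66 ± 0.10 (edgeR adjusted p = 0.114 and 0.111). Ankrd37 (chromosome 8, 45996908 to 45999850), a HIF target, had 1.80, 3.33 and 18.9 CPM in Ezh2-deficient libraries, against 4.06, 8.45 and 23.1 CPM in wildtype libraries. It differed by -0.91 ± 0.23 (edgeR adjusted p = 0.235) and was closest to wildtype at day 14.

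The collagen prolyl 4-hydroxylase subunits P4ha1 and P4ha2, which HIF induces and which collagen needs to fold, were lower at day 3 and higher at day 14. P4ha1 had 637, 571 and 1185 CPM in Ezh2-deficient libraries, against 817, 587 and 1047 CPM in wildtype libraries. For P4ha1 the ratio was 0.779, 0.974 and 1.13 on the 3 days, and for P4ha2 it was 0.713, 0.898 and 1.16. Ndrg1, a stress-induced gene, was near wildtype at day 3, had a ratio of 0.610 at day 7 and of 1.10 at day 14. The 3 had shared differences of -0.07, -0.14 and -0.18 (edgeR adjusted p = 0.842, 0.713 and 0.702).

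Whether the genotype difference shifted with time was tested as its change per doubling of day, in a fit with 1 residual degree of freedom. No member passed an adjusted p of 0.05, where 0.614% of all genes did. At an unadjusted p under 0.05 there were 8 members (Eno2, Slc16a3, Pfkfb3, Car12, Vegfa, Epas1, P4ha1 and P4ha2), which is 22.2% of 36 beside 13.3% of all genes. Car12 had the largest rise in value, at 0.57 ± 0.10 on the log2 scale per doubling (edgeR adjusted p = 0.0883), followed by Pfkfb3 at 0.47 ± 0.07 (0.0562) and Ankrd37 at 0.41 ± 0.19 (0.427). Eno2, Epas1 and Eno1 had the lowest values, at -0.52 ± 0.13, -0.50 ± 0.13 and -0.22 ± 0.10 (edgeR adjusted p = 0.193, 0.217 and 0.416). The enzymes had a median change of -0.03 per doubling.

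Between days 3 and 14, 13 of the 21 other members rose, led by Car9, Adm and Ankrd37, while Hif1a, Slc2a1 and Hk2 fell and Ldha, Pgk1 and Gapdh did not pass. For day 14 against day 3, with the genotypes standing in for replicates, 17 members rose (23.2% of all genes did) and 5 fell (22.4% of all genes did) at an adjusted p under 0.05 in edgeR. The 17 were those 13 and 4 of the 15 enzymes, Hk1, Gpi1, Pfkp and Aldoc. The 5 that fell were Hk2, Pfkl, Pfkm, Slc2a1 and Hif1a. Without the day 7 pair Gpi1, Aldoc, Vegfa, P4ha1 and Pfkl no longer passed and Ndrg1 did, which left 13 higher and 5 lower. The median log2 difference was 0.76 for the other members, 0.14 for the enzymes and -0.02 for all genes. Over the same days the chondrocyte marker sum was lower and the osteoblast marker sum was higher, as given above. The sum of 8 macrophage markers, all detected, was 109.4, 1440.5 and 2794.2 CPM in Ezh2-deficient libraries at days 3, 7 and 14, against 145.2, 1392.9 and 2025.2 CPM in wildtype libraries. Lyz2 was the largest part of this sum, with 1803.6 and 1149.1 CPM at day 14 in the Ezh2-deficient and wildtype libraries. The median genotype difference of the 8 was -0.003, with 1 lower and 1 higher at an unadjusted p under 0.05. The part of the marker changes over days in the differences between days was not tested.

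**Figure D4:**
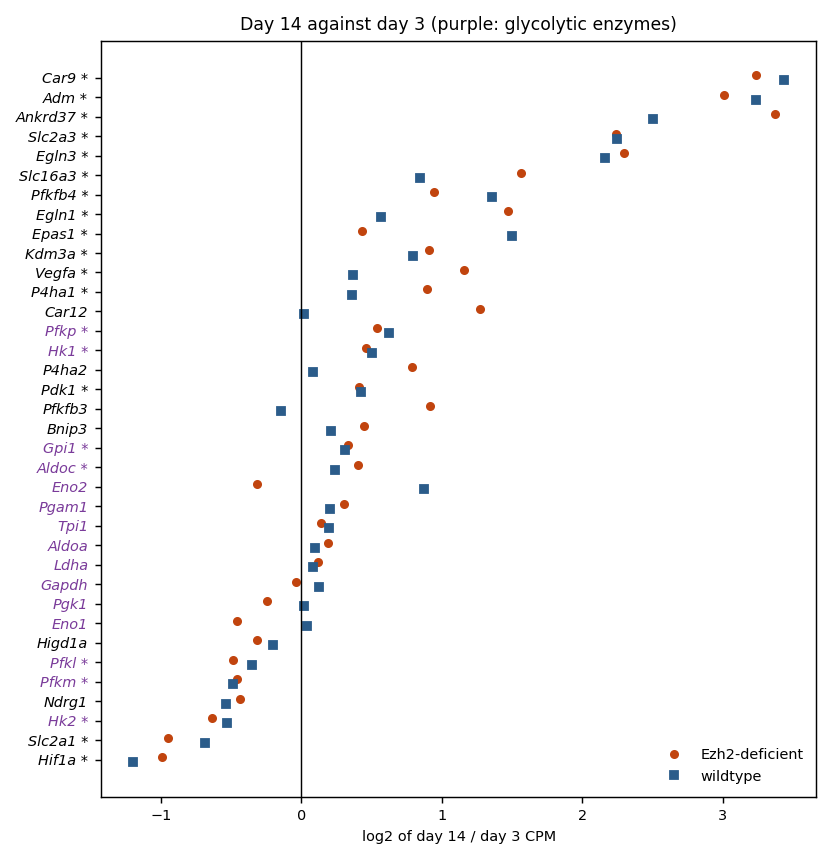
Log2 ratio of day 14 over day 3 CPM for each member in Ezh2-deficient (circles) and wildtype (squares) cultures; asterisks mark members that passed in edgeR and purple names are glycolytic enzymes. Car9, Adm, Ankrd37, Slc2a3 and Egln3 lie above 2 in both genotypes, and Hif1a lies lowest.

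Car9 rose 10.1-fold between day 3 and day 14 (log2 3.34 ± 0.10; edgeR adjusted p = 0.000131), Adm 8.79-fold (3.14 ± 0.15; 0.000164) and Ankrd37 7.83-fold (2.97 ± 0.30; 0.00118). Slc2a3 rose 4.78-fold (edgeR adjusted p = 0.000421) and Egln3 4.71-fold (edgeR adjusted p = 0.000954). Hif1a fell 2.13-fold at the RNA level (log2 -1.09 ± 0.11; edgeR adjusted p = 0.00121) while these targets rose, and Epas1 rose 1.904-fold (edgeR adjusted p = 0.0438). The glucose transporters went opposite ways, Slc2a1 falling 1.76-fold (edgeR adjusted p = 0.00266) as Slc2a3 rose. Even so, Slc2a3 was only 5.09% of the Slc2a1 and Slc2a3 RPKM in the Ezh2-deficient library at day 14, and 4.63% in the wildtype library. Vegfa rose 1.70-fold and P4ha1 1.54-fold (edgeR adjusted p = 0.0239 and 0.0236). Their log2 rises were 1.16 and 0.90 in Ezh2-deficient libraries, against 0.37 and 0.36 in wildtype libraries. Hk2 fell 1.496-fold (edgeR adjusted p = 0.00340), and Ldha, Pgk1 and Gapdh did not pass, at 0.10 ± 0.12, -0.11 ± 0.13 and 0.04 ± 0.08.

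The steps from day 3 to day 7 and from day 7 to day 14 were also tested. Between days 3 and 7, 8 members rose (19.5% of all genes did) and 8 fell (16.6% of all genes did) at an adjusted p under 0.05 in edgeR. Those that rose were Pfkp, Slc2a3, Pfkfb4, Car9, Adm, Egln3, Kdm3a and Ankrd37. Those that fell were Hk2, Pfkl, Pfkm, Aldoc, Slc2a1, Hif1a, Higd1a and Ndrg1. Between days 7 and 14, 8 members rose, where 3.38% of all genes did, and 0 fell, where 2.29% of all genes did. At an unadjusted p under 0.05 the count of members that were lower was also 0, beside 11.6% of all genes. The 8 that rose were Aldoc, Car9, Vegfa, Adm, Egln3, P4ha1, Bnip3 and Ankrd37. Aldoc fell to a log2 difference of -1.02 ± 0.09 at day 7 against day 3 and rose by 1.34 ± 0.09 from there to day 14 (edgeR adjusted p = 0.00134 and 0.00453).

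Other genes of these pathways were counted from lists that held no member. Among 28 tested genes of glycolysis and pyruvate use, the median was -0.07 and none passed in edgeR. At an unadjusted p under 0.05, 7 were lower and 4 higher (6.33% and 6.82% of all genes). DESeq2 called 3 lower and 2 higher, where it called 235 lower and 372 higher of 16280 genes. Pygl, the glycogen phosphorylase of liver, had 110, 77.2 and 94.0 CPM in Ezh2-deficient libraries, against 163, 126 and 137 CPM in wildtype libraries (-0.61 ± 0.07; edgeR adjusted p = 0.0798). Hk3 and Gys1, a hexokinase and a glycogen synthase, differed by -0.76 and -0.35, and Slc2a4, the insulin-responsive glucose transporter, by 1.37 (edgeR adjusted p = 0.111, 0.178 and 0.105). Eno3, another enolase, had 10.4, 18.4 and 23.5 CPM in Ezh2-deficient libraries, against 9.80, 7.40 and 5.74 CPM in wildtype libraries. Eno3 thus differed in the direction opposite to Eno1 and Eno2 at day 14. Its difference was 1.14 ± 0.37 (edgeR adjusted p = 0.309, DESeq2 adjusted p = 0.0239). Pkm2, the pyruvate kinase entry, was lower in value at each day, with a difference of -0.28 ± 0.11 (edgeR adjusted p = 0.377).

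Among 37 other hypoxia-induced genes tested, the median was -0.14 and none passed in edgeR. At an unadjusted p under 0.05, 9 were lower and 3 higher (6.33% and 6.82% of all genes). DESeq2 called 6 lower and 3 higher, where it called 235 lower and 372 higher of 16280 genes. Fam162a, a HIF-induced mitochondrial protein, had 158, 156 and 196 CPM in Ezh2-deficient libraries, against 261, 270 and 304 CPM in wildtype libraries (-0.72 ± 0.08; edgeR adjusted p = 0.0714). Bnip3l, the paralogue of Bnip3 in mitochondrial removal, differed by -0.48, Ppp1r3c, a glycogen-targeting phosphatase subunit, by -0.77, and Mif, a cytokine, by -0.41 (edgeR adjusted p = 0.114, 0.127 and 0.135). Between days 3 and 14, 19 of the 37 rose and 6 fell at an adjusted p under 0.05 in edgeR. The shares of all genes were 23.2% and 22.4%. Lox, the collagen cross-linking enzyme, rose 20.4-fold, and Ero1l, an oxidase of the endoplasmic reticulum, fell 2.31-fold (edgeR adjusted p = 0.000598 and 0.00118).

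Among 11 other genes of oxygen sensing, the median was -0.05 and none passed in edgeR or DESeq2. At an unadjusted p under 0.05, 2 were lower and 0 higher (6.33% and 6.82% of all genes). The 2 were P4htm, a transmembrane prolyl hydroxylase, at -0.55, and Vhl, the recognition subunit of the HIF ubiquitin ligase, at -0.20 (edgeR adjusted p = 0.288 and 0.348). Vhl had 49.9, 46.0 and 50.3 CPM in Ezh2-deficient libraries, against 61.5, 49.7 and 57.3 CPM in wildtype libraries. The ubiquitin ligase subunits Tceb1 and Rbx1 differed by -0.15 and -0.14 (edgeR adjusted p = 0.440 and 0.462).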

How the data were processed

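RNA was sequenced from 6 libraries of mouse chondrocyte micromasses, 1 for each of 2 genotypes at each of 3 days, and grouped by the genotype and time labels. The authors deposited 1 table of whole-number read counts per gene, not normalized, and RPKM values per gene made from the same counts, per the file headers. The submitters' processing notes name CASAVA 1.9, TopHat, HTSeq and mm10, with no role or order. Columns without a sample numbered 0. Depth per library is given in the text, and the lowest member count was 134.

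Counts were analysed in R 4.3.3 with edgeR 4.0.16, using TMM and filterByExpr with day as the group and a minimum count of 10. The quasi-likelihood F test was two-sided, with Benjamini-Hochberg over all 16280 genes and a threshold of 0.05. The fit was checked on simulated counts with planted genotype changes larger than those of any member and no difference between days. That check does not show how the test behaves for smaller differences. The model was day plus genotype; a further fit added genotype by centred log2 day. Standard errors were the absolute log2 difference over the square root of F. The labels do not say whether libraries came from separate cultures or animals. With 1 library per genotype and day, the residual spread behind the p-values is how far the genotype ratio varied between days. The p-values do not measure a spread between replicates. Single-day ratios have exact 95% conditional intervals on fragments. RPKM values were used only to compare levels between genes. Alternatives were DESeq2 1.42.0, limma-voom (limma 3.58.1), RLE factors, total counts, no filter, at least 1 CPM in all libraries, leaving out each pair of libraries and, chosen after seeing the data, sums without P4ha1 and P4ha2.

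The 36 members, the other pathway lists and the marker lists (chondrocyte, osteoblast, dividing cell, macrophage, endothelial, erythroid, adipocyte, smooth muscle and skeletal muscle) were chosen with earlier results of these data known. Values in every library are given for the 10 members with the smallest p for genotype, the 6 with the smallest p for day 14 against day 3, the 3 largest and 3 smallest changes per doubling of day, isoenzyme pairs of opposite sign, and Hk2, Gapdh, Ldha, Slc2a1, Vegfa, Hif1a, Epas1 and Egln3; of the other pathway lists, up to 4 with the smallest p are named. Slc16a3, Pgk1, Egln1, P4ha1, Pkm2, Eno3, Lox, Ero1l, Col1a1, Col2a1 and Lyz2 were added after their values were seen. Near-identical copies were found with blastn against GENCODE M21 transcripts.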

Additional observations from a re-analysis of the deposited data

Results flagged for a closer look

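For 8 members the ratio of Ezh2-deficient to wildtype lay on opposite sides of 1 on 2 of the days, with both counting intervals excluding 1, which is 22.2% of 36, beside 15.8% of all genes tested. The log2 ratio was higher at day 14 than at day 3 by 1.06 for Pfkfb3, 0.80 for Vegfa, 0.70 for P4ha2 and 0.54 for P4ha1. It was higher at day 14 than at day 7 by 1.20 for Egln1 and 0.85 for Ndrg1. It was higher at day 3 than at day 14 by 1.19 for Eno2, and higher at day 3 than at day 7 by 1.12 for Epas1. Each ratio comes from 1 library per genotype, so the difference between 2 days was not tested by itself. The change of the genotype difference per doubling of day, tested over all 3 days with edgeR, gave adjusted p = 0.0562 for Pfkfb3, 0.105 for Vegfa, 0.156 for P4ha2, 0.280 for P4ha1, 0.451 for Egln1, 0.980 for Ndrg1, 0.193 for Eno2 and 0.217 for Epas1, and none passed.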

How the results depend on the processing

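No member was called higher under any setting run for the genotype difference. With edgeR the count of members called lower was 0 with TMM and also with RLE factors, total counts, no filter and the 1 CPM filter; it was 18 with DESeq2, 2 with limma-voom and between 0 and 10 when a pair of libraries was left out, the 10 without the day 3 pair, when 863 of 15808 genes were called, and 0 of all genes without the day 7 or day 14 pair. Members lower at an unadjusted p under 0.05 numbered 23, and between 15 and 23 when a pair was left out. The median of the enzymes for genotype stayed between -0.44 and -0.37 over all settings. For day 14 against day 3 the enzyme median was 0.14, and it was 0.16 with RLE factors and DESeq2, 0.22 with total counts, 0.18 with the 1 CPM filter and 0.17 without the day 7 pair. At day 14 alone the enzyme median was -0.41, and -0.50 with total counts, which moved the median of all genes to -0.08. Pfkl no longer passed for day 14 against day 3 with total counts. Leaving out a pair turned the sign of 6 genotype differences that did not pass: Eno2 ranged from -0.40 to 0.19, Vegfa from -0.30 to 0.094, Epas1 from -0.22 to 0.33, P4ha1 from -0.19 to 0.069, P4ha2 from -0.32 to 0.031 and Ndrg1 from -0.33 to 0.083; the cause was not tested. It moved others by over 1.5 times with no turn of sign: Pfkfb3 ranged from -0.61 to -0.088 and Egln1 from -0.67 to -0.076, Car12 was -0.17 and Pfkfb4 0.13 without the day 3 pair, and Eno1 was -0.18 and Adm -0.17 without the day 14 pair. The day term compares the genotypes within a day; no pairing by replicate number was possible because the labels carry none. With 2 residual degrees of freedom, small differences can be missed.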

Other observations

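Markers of cell types were counted by genotype. At an unadjusted p under 0.05, 8 of 12 chondrocyte markers were lower in Ezh2-deficient libraries, where 6.33% of all genes were. At that level 8 of 8 osteoblast, 7 of 8 adipocyte and 4 of 6 smooth muscle markers were higher, where 6.82% of all genes were. None passed an adjusted p of 0.05 in edgeR. DESeq2 called 3 of the chondrocyte markers lower and 5 osteoblast, 5 adipocyte and 3 smooth muscle markers higher. Of all 16280 genes it called 235 lower and 372 higher. The sum of the adipocyte markers was 235, 967 and 475 CPM in Ezh2-deficient libraries at days 3, 7 and 14, against 107, 613 and 364 CPM in wildtype libraries, and that of the smooth muscle markers was 188, 505 and 270 CPM in Ezh2-deficient libraries, against 70.9, 342 and 234 CPM in wildtype libraries. The sum of 10 genes of dividing cells was 536, 959 and 426 CPM in Ezh2-deficient libraries, against 442, 1487 and 990 CPM in wildtype libraries. Endothelial markers summed to between 3.77 and 6.97 CPM in Ezh2-deficient libraries and between 4.73 and 9.14 CPM in wildtype libraries, and skeletal muscle markers to between 5.51 and 15.5 CPM in Ezh2-deficient libraries and between 7.26 and 11.2 CPM in wildtype libraries. Erythroid markers summed to at most 1.13 CPM in a library, with the haemoglobin genes Hbb-b1, Hba-a1 and Hba-a2 at 0 in every library.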
